A study of Mus musculus with 12 samples.

Results

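The genes described here encode the proteins of the cytosolic ribosome. They were taken from the GENCODE annotation of the mouse genome (GRCm38, also called mm10) by symbol: protein-coding autosomal genes named Rpl or Rps with a number, together with Rpsa, Rplp0, Rplp1 and Rplp2, without the kinase genes of the Rps6k family, the Rps19 binding protein gene and pseudogenes. The rule gave 81 genes out of 20807 protein-coding autosomal genes. Of these, 73 encode core ribosomal proteins (43 of the large subunit, which include 3 stalk proteins, and 30 of the small subunit) and 8 are paralogs or retrogenes. The 4 X-linked genes Rpl10, Rpl36a, Rpl39 and Rps4x were left out by the rule. The members lie on 18 autosomes, with 14 on chromosome 7, 8 each on chromosomes 9 and 17, and 7 on chromosome 11.

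Accessible chromatin was mapped by ATAC-seq, in which the Tn5 transposase inserts sequencing adapters into open DNA, in 12 libraries from 2 mouse embryonic stem (ES) cell lines grown in serum with 2 kinase inhibitors and LIF. In ZHBTc4 cells, OCT4 is made only from a transgene that doxycycline (dox) switches off, and the 4 libraries came from untreated cells (OCT4 ON) and cells given 1 µg/ml dox (OCT4 OFF) for 24 hr. In 2TS22C cells the same kind of switch controls SOX2, and the 8 libraries came from untreated cells (SOX2 ON) and cells given 1 µg/ml dox (SOX2 OFF) for 26 hr or 40 hr. Each of the 6 groups had 2 replicates, and the untreated cells of each line carried the same transgene as the treated ones.

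The deposited table was a single list of 170548 accessible regions, with positions only. According to the paper, peaks were merged over the ATAC-seq experiments of both lines. The paper also used published ZHBTc4 data from cells in serum and LIF, and the list does not show whether their peaks are included. The list held no value per library, so no member could be compared between ON and OFF cells and the depth behind a region is unknown. A region open in 1 condition cannot be told apart from one open in all. Every value below is therefore a description of where regions lay, set beside the same measure in other genes, with no test. Shares are given with 95% Wilson intervals and medians with 95% order-statistic intervals, which cover the number of genes only. A region over a transcription start site (TSS) was present in 6 of 6 ES cell genes (Pou5f1, Sox2, Nanog, Esrrb, Zfp42 and Klf4). The share was 70.1% over all protein-coding autosomal genes other than the members. Among 6 genes of other cell types, Myod1, Cd3e and Gfap also had one, Myh6 had a region within 1 kb of a TSS, and Alb and Ins2 had none. A call this common in a pooled list cannot check the cell type.

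Ribosomes are built from ribosomal RNA and about equal amounts of each ribosomal protein, so these genes are transcribed at high rates in all growing cells. Their mRNAs typically begin with a C followed by an uninterrupted run of pyrimidines, the 5′ terminal oligopyrimidine (TOP) motif, through which translation responds to the mTOR pathway. Many of the genes carry small nucleolar RNAs (snoRNAs) in their introns, and their abundant mRNAs have left a large number of processed pseudogenes in mammalian genomes.

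A run of pyrimidines at or near the annotated TSS was visible in the reference sequence of some members. The windows below hold the 15 bases before the annotated TSS and the 15 bases that begin with it, read from GRCm38 5′ to 3′ on the gene's strand, with the longest run of C or T in capitals. They show 3 long runs, chosen after the lengths were known, then the stalk genes Rplp0 and Rplp2, whose proteins recruit translation factors, the pair of widest start regions, the narrowest, and both members without a start region.
Rps24 (chr14:24490703-24490732, plus strand): cggcagtgagcggTCCTCTTTTCCTCCTCT
Rpl22 (chr4:152325852-152325881, plus strand): cgCCCCCCTCCCTTTCTgcctcctctgccg
Rpl37 (chr15:5116630-5116659, plus strand): tggcgggggtgCTTTCTCTTCCggtctctt
Rplp0 (chr5:115559452-115559481, plus strand): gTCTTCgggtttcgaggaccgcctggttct
Rplp2 (chr7:141447355-141447384, plus strand): ttcgcgctgcaTTTTgggagctgtggagcc
Rpl7a (chr2:26910749-26910778, plus strand): gcctgCTCTCgcgatatctgcggccactta
Rpl15 (chr14:18271053-18271082, minus strand): gCCCCaagaggcacagtgcggctacaatgc
Rpl39l (chr16:10170213-10170242, plus strand): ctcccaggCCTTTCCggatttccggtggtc
Rpl3l (chr17:24727805-24727834, plus strand): gcagctgagtgTTCTagctctgtcatttga
Rps27rt (chr9:114982725-114982754, minus strand): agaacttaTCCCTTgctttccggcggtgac
The run was 17 bases long in Rps24, 15 in Rpl22 and 11 in Rpl37. It was 5 in Rplp0 and Rpl7a and 4 in Rplp2, Rpl15 and Rpl3l. The third stalk gene, Rplp1, whose window is not printed, had a run of 10.

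A run of 8 or more pyrimidines lay in this 30-base window in 25 of 81 members (30.9%, 21.9 to 41.6). The share was 11.6% in all other protein-coding genes and 11.1% in those with an accessible start. It was 11.5% in 78 genes of the mitochondrial ribosome (Mrpl and Mrps), which is a separate ribosome built for the mitochondrial genome, and 10.3% in 39 proteasome subunit genes (Psma to Psmd). Within the core set the run was found in 17 of 43 large subunit genes (39.5%, 26.4 to 54.4) and 7 of 30 small subunit genes (23.3%, 11.8 to 40.9), intervals that overlap. The measure depends on the annotated base: where the annotated TSS is not the one used in the cell, the run can fall outside the window. A run is also counted wherever it lies in the window, so it can end before the TSS and need not be a TOP motif.

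Nearly all members had accessible chromatin at their start. A region lay within 1 kb of an annotated TSS in 79 of 81 members (97.5%, 91.4 to 99.3), against a background of 76.1% of the other 20726 protein-coding autosomal genes. In each of these 79 members the region covered the TSS itself, which held for 70.1% of the other genes. All 73 core genes had a region over the TSS (100%, 95 to 100), including all 3 stalk genes, and the members without one were both outside the core set. The comparison families were as complete within 1 kb, with 78 of 78 mitochondrial ribosome genes and 39 of 39 proteasome genes. The gap between the members and other genes is therefore one that these other housekeeping families showed too.

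The members without a start region were Rpl3l and Rps27rt. Rpl3l encodes the muscle form of the large subunit protein that Rpl3 encodes elsewhere. Its 8324 bp gene held 1 region, which was distal and covered 2.13% of the gene, and its start window was poor in CpG dinucleotides, with a ratio of observed to expected CpG of 0.0893. Rps27rt is a single-exon gene of 374 bp with no region in its body, and its start window was not as poor in CpG, with a ratio of 0.633. The ratio over all members had a median of 0.855 (0.767 to 0.926), against 0.571 in other genes, 0.728 in other genes with a start region and 0.822 in the mitochondrial ribosome genes.

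The other 6 paralogs and retrogenes had start regions of ordinary size, with 1 exception. Rpl10l, an intronless copy of Rpl10, had a region of 1319 bp that covered 86.9% of the gene. The region was 1328 bp wide at Rpl7l1, 1288 bp at Rps27l, 1046 bp at Rpl22l1 and 1455 bp at Rpl36al, where it also held the TSS of Mgat2 on the other strand, 74 bp away. Rpl39l, a copy of Rpl39, had the narrowest start region of all members, 336 bp. Where a copy of a ribosomal protein gene is near identical in sequence, reads in its exons can be hard to place. The treatment of such reads is not given in the sources used here, and how alike these copies are was not measured.

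**Figure D1:**
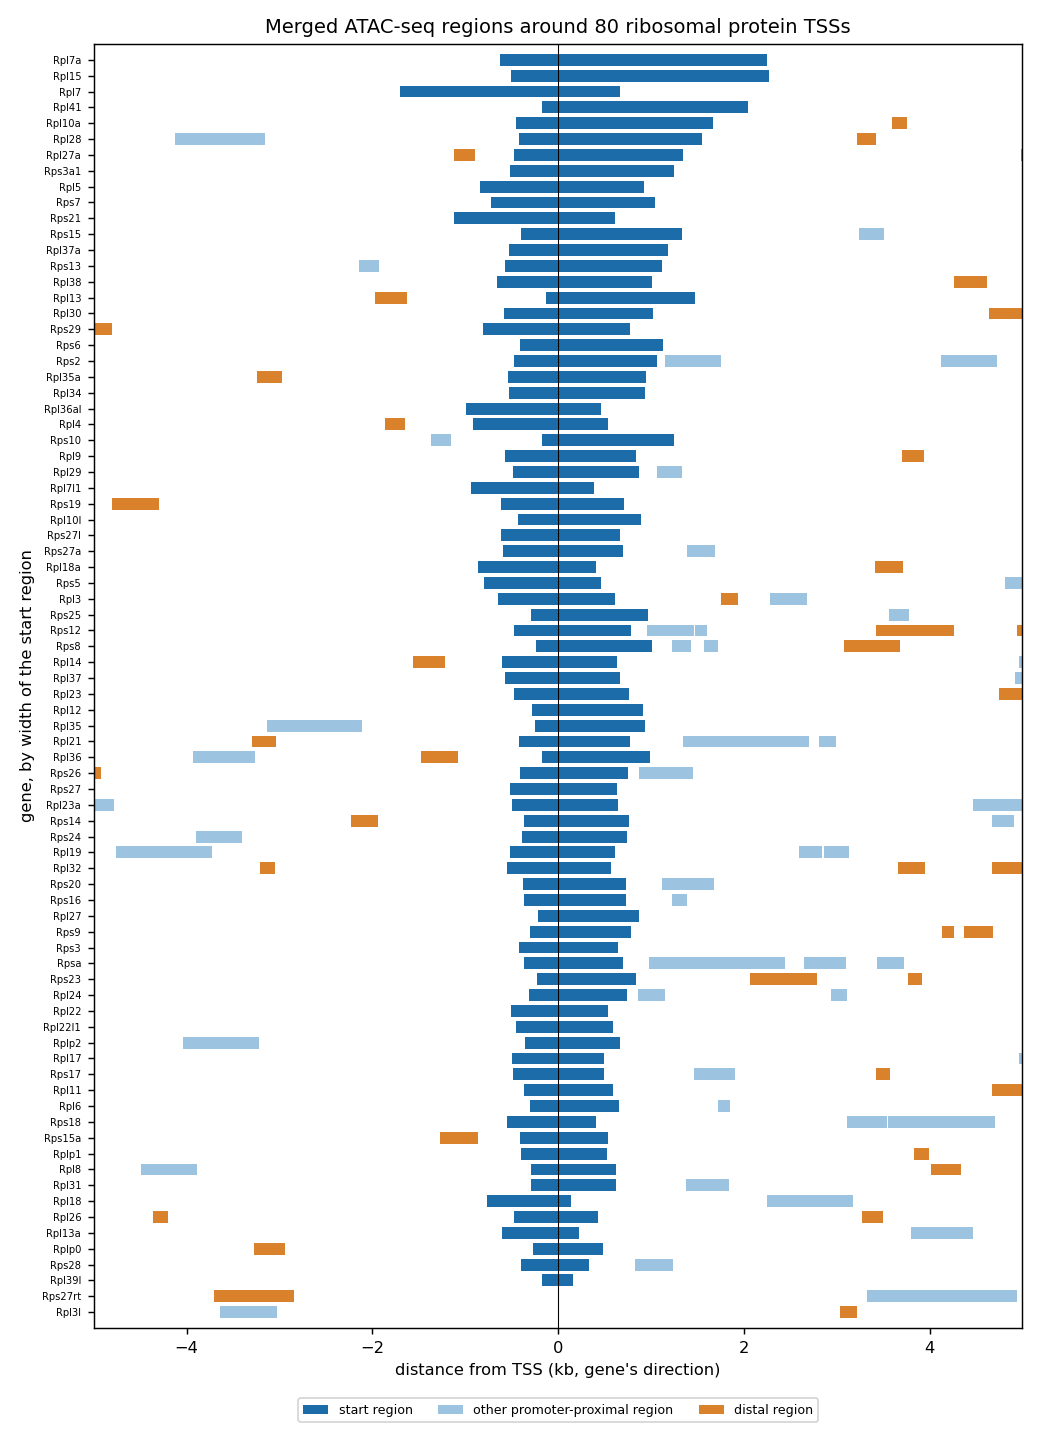
Accessible regions within 5 kb of the annotated TSS of 80 members (1 of the 79 members with a start region is not drawn), to scale in the gene's direction (x axis, kb) and ordered by the width of the start region (y axis, 1 gene per row). Dark blue bars are the start regions, light blue bars are other regions centered within 1 kb of some TSS, and orange bars are distal regions. Start regions run from 336 bp at Rpl39l to 2878 bp at Rpl7a, and Rpl3l and Rps27rt at the bottom have none.

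The region nearest to the principal TSS, called the start region here, had a median width of 1234 bp (1140 to 1288) in 79 members. The middle part of the distribution, from the lower to the upper quartile, ran from 1061 to 1516 bp. Other genes with a start region had a median of 1102 bp (1096 to 1110, n = 14864). In those whose start region covered the TSS, as it did in all 79 members, the median was 1137 bp (1130 to 1145, n = 13296). That interval overlapped the one of the members. Mitochondrial ribosome genes had 988.5 bp (935 to 1081) and proteasome genes 1005 bp (915 to 1187), both below the members, with an interval that stayed apart from theirs for the first family and overlapped it for the second. Against other genes of like CpG ratio, the difference was 50 bp, and their median of 1184 bp lay within the members' interval. The difference was larger against 1016 other genes of like length (2496 to 4763 bp) with a start region, whose median was 1025 bp (994 to 1058). Large and small subunit genes had nearly the same width, 1230 bp (1124 to 1451) and 1206 bp (1096 to 1324).

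Few members had a narrow start region. A width under 500 bp was seen in 1 of 79 members (1.27%), Rpl39l, and in 9.45% of other genes with a start region. That set includes genes whose start region does not cover the TSS. In mitochondrial ribosome genes the share was 1.28% and in proteasome genes 2.56%, so narrow start regions were few there too. A width of 2 kb or more was reached by 5 members (6.33%) and by 3.64% of the other genes. The widest was 2148 bp in mitochondrial ribosome genes and 1735 bp in proteasome genes. These tail shares are given without intervals. Other narrow start regions were those of Rps28 (731 bp), Rplp0 (751 bp) and Rpl13a (837 bp). The stalk genes were all on the narrow side of the median, with 927 bp at Rplp1 and 1032 bp at Rplp2 beside the 751 bp at Rplp0.

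The 5 widest start regions belonged to large subunit genes: Rpl7a (2878 bp, chr2:26910137-26913014), Rpl15 (2779 bp, chr14:18268798-18271576), Rpl7 (2365 bp, chr1:16103996-16106360), Rpl41 (2221 bp, chr10:128547261-128549481) and Rpl10a (2116 bp, chr17:28328118-28330233). In 4 of them most of the length lay downstream of the TSS, with 2250 bp at Rpl7a, 2269 bp at Rpl15, 2044 bp at Rpl41 and 1665 bp at Rpl10a. Rpl7 was the exception, with 1698 bp upstream and 666 bp downstream, and its region held the TSS of Rdh10, a retinol dehydrogenase gene, 1112 bp away on the other strand. The Rpl7a region covered 88.1% of the gene and all 3 snoRNAs in its introns. Rpl41, which encodes the smallest ribosomal protein, and Rpl36 were the members whose whole gene lay in the start region.

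**Figure D2:**
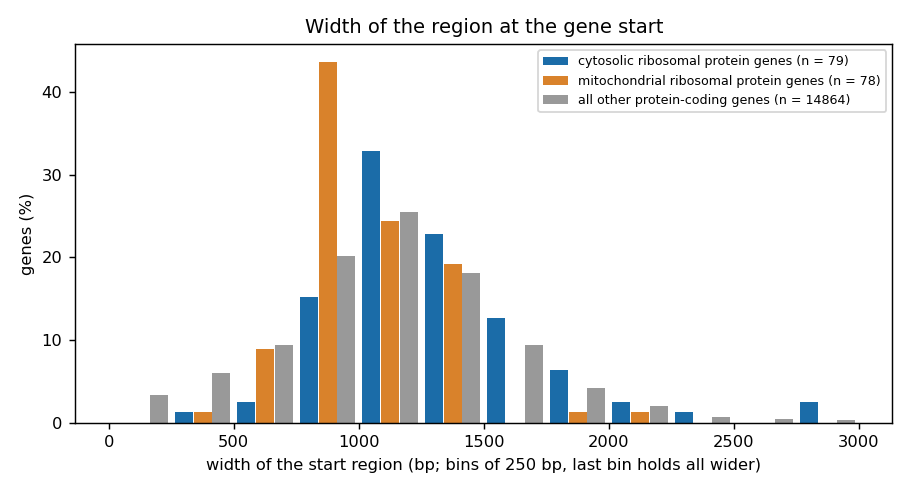
Width of the start region in bins of 250 bp (x axis) as the percentage of genes (y axis) for cytosolic ribosomal protein genes (blue, n = 79), mitochondrial ribosomal protein genes (orange, n = 78) and all other protein-coding autosomal genes (grey, n = 14864). Medians were 1234, 988.5 and 1102 bp, and 1 blue gene lies below 500 bp.

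Start regions of the members reached farther into the gene than away from it. The median extent was 473 bp (417 to 521) upstream of the TSS and 731 bp (653 to 784) downstream, against 447 bp and 620 bp (615 to 626) in other genes. In other genes whose TSS was covered, the extents were 458 bp and 627 bp (620 to 632). In mitochondrial ribosome genes the downstream extent was 558.5 bp (505 to 616) and in proteasome genes 587 bp (494 to 687). Of the region's length, a median of 63.6% (56.5 to 65.8) lay downstream in members and 57.5% in other genes. The median was 57.4% in mitochondrial ribosome genes and 58.1% in proteasome genes. All of these values lay within the members' interval. The downstream side was the longer in 62 of 79 members (78.5%, 68.2 to 86.1) against 66.3% of other genes whose TSS was covered. This share was 70.5% in mitochondrial ribosome genes and 70.3% in proteasome genes, both within the members' interval. Across the 79 members, width followed the downstream extent with a Spearman rho of 0.73 and the upstream extent with 0.38, where part and whole share bases. In other genes the values were 0.69 and 0.59. Between width and the CpG ratio rho was 0.014 across members and 0.36 across other genes (n = 13296). These correlations are across genes, which are not replicates.

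At 700 bp past the TSS, 57.5% of core genes were covered by a region, compared with 41% of other genes with a start region and 20.5% of mitochondrial ribosome genes. At the TSS itself the values were 100%, 89.5% and 100%. At 1 kb past the TSS the values were 31.5%, 18.8% and 3.85%, and at 1.5 kb they were 17.8%, 7.32% and 1.28%. On the upstream side the order was not kept: at 500 bp before the TSS the values were 43.8%, 41.7% and 34.6%, and at 1 kb before it they were 5.48%, 11% and 5.13%.

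**Figure D3:**
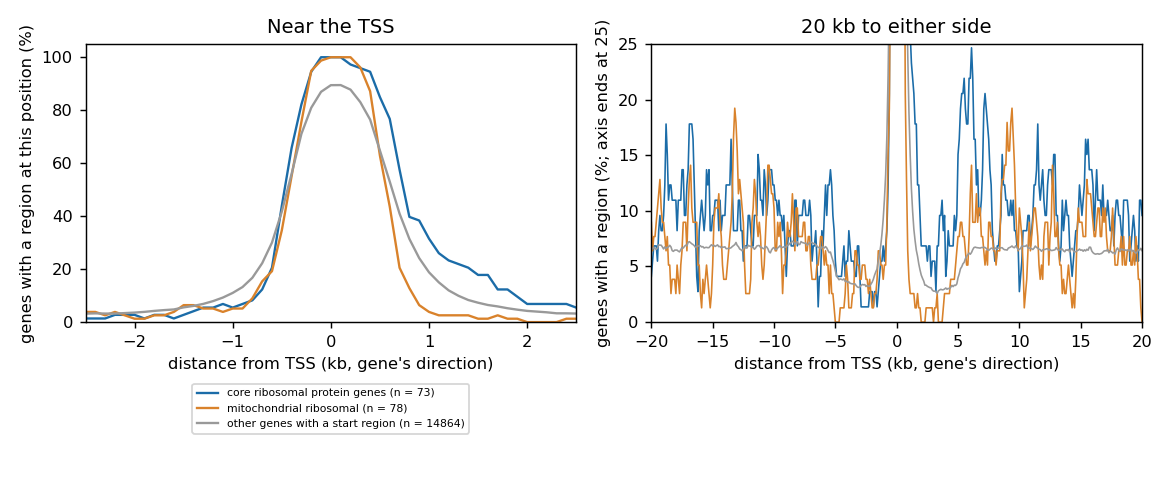
Percentage of genes with an accessible region at each distance from the TSS (x axis, kb, gene's direction) for core ribosomal protein genes (blue), mitochondrial ribosomal protein genes (orange) and other genes with a start region (grey). The left panel shows the blue line at 31.5% at 1 kb past the TSS, above the grey line at 18.8% and the orange at 3.85%, and the right panel, whose y axis ends at 25%, shows the 20 kb to either side.

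The start region covered all of exon 1 in 77 of 79 members and the start codon in 65, and it reached the first intron in 77. Exon 1 was fully covered in 78.9% and the start codon in 60.2% of other genes with a start region (n = 14863). The length of exon 1 was not matched in this comparison, and no share of other genes was computed for the first intron. Regions covered a median of 26.5% (22.7 to 32.1) of a member's gene body, against 5.57% in other genes, but members are short, with a median gene length of 3368 bp against 17760 bp. In other genes of like length with a start region the median was 20.1% (19.5 to 21.4). A distal region inside the gene was present in 10 of 81 members (12.3%, 6.85 to 21.3), against 18.3% (16.0 to 20.8) of those genes of like length and 60.5% of all other genes.

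snoRNAs guide chemical modification of ribosomal RNA and are cut from introns of the host transcript. The members contained 56 annotated snoRNAs in 28 host genes. A region overlapped 21 of them (37.5%, 26.0 to 50.6), and 14 of these lay in the start region of the host. Of 279 snoRNAs inside other protein-coding genes on the same strand, 36 overlapped a region (12.9%, 9.47 to 17.3). Distance from the host's TSS was not matched in this comparison, and host genes among the members are short.

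Many members shared their accessible start with another gene. The start region held the TSS of at least 1 other annotated gene in 36 of 79 members (45.6%, 35.0 to 56.5), against 26.6% of other genes with a start region, 46.2% of mitochondrial ribosome genes and 23.1% of proteasome genes. Against other genes whose start region was at least as wide as the members' lower quartile, 33.9% of which held another TSS, the difference fell from 19 to 11.7 percentage points. RNA genes are included in this count, with starts annotated as snoRNA in 11 members and as miRNA in 3. The matching shares in other genes were not computed. For protein-coding neighbors alone the share was 17 of 79 (21.5%, 13.9 to 31.8), near the background of 16.5% and below the 39.7% of mitochondrial ribosome genes. The neighbor was on the opposite strand in 15 of these 17, a share that was not computed for other genes. The others were Zc3h10 at Rpl41 and a read-through transcript of Rps10 with Nudt3 that the annotation lists as a gene of its own.

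The closest divergent pairs were Rps28 with Ndufa7, a subunit gene of respiratory complex I, with 10 bp between the TSSs, then Rpl12 with Lrsam1 and Rps25 with Trappc4, both at 33 bp. Rps27 and Rab13 were 44 bp apart, and Rpl9 and Lias, which encodes lipoic acid synthetase, 53 bp. Start regions with another protein-coding TSS had a median width of 1412 bp (731 to 2878, n = 17, range in parentheses), and those without one 1180 bp (336 to 2116, n = 62). A shared start did not require a wide region, as the 731 bp at Rps28 shows.

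Rps2 and Rpl3l, on chromosome 17, were members that lay within 20 kb of each other, 5.89 kb apart on the same strand with 7757 bp between the TSSs. Rps2 had a start region of 1540 bp and Rpl3l had none.

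Farther from the start, the 81 windows, each holding the gene and 20 kb to either side, contained 645 separate regions. Of these, 359 (55.7%) were distal, meaning centered more than 1 kb from every annotated TSS, and 16 regions fell in more than 1 window. Over the whole list 82.7% of regions were distal. Each window was placed around a gene and so holds at least 1 TSS, which lowers the distal share by construction. Every member had at least 1 distal region in its window (81 of 81, 95.5 to 100), against 92.5% of other genes. The share was 97.6% of other genes with a start region, 97.4% of proteasome genes and 96.2% of mitochondrial ribosome genes, all within the members' interval. Members had a median of 8 regions (7 to 9) and 4 distal regions (4 to 5, range 1 to 11), and other genes had 8 and 5.

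This order turned with the length of the window. Within 20 kb of the TSS alone, which gives every gene the same length, members had a median of 4 distal regions (3 to 4) and other genes 3, also when only other genes with a start region were counted. Per 10 kb of sequence more than 1 kb from every TSS, in the longer window, members had 1.32 distal regions (1.16 to 1.51), other genes 0.838, other genes with a start region 0.968, and other genes of like length with a start region 1.04 (0.981 to 1.09). Mitochondrial ribosome genes had 1.07 (0.888 to 1.19) and proteasome genes 1.09 (0.900 to 1.34). The nearest distal region was centered a median of 5.66 kb (5.16 to 6.14) from the TSS of a member, 6.73 kb in other genes with a start region, and 5.95 kb (5.65 to 6.26) in those of like length.

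**Figure D4:**
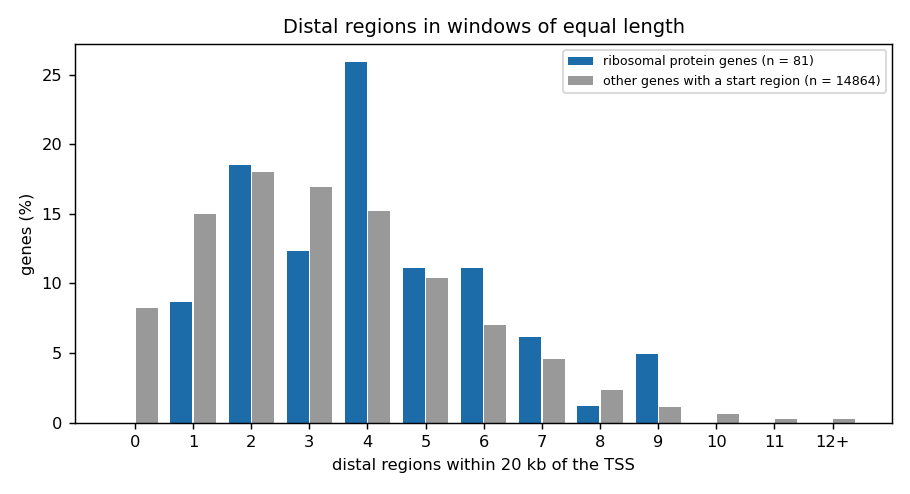
Number of distal regions within 20 kb of the TSS (x axis) as the percentage of genes (y axis) for ribosomal protein genes (blue, n = 81) and other genes with a start region (grey, n = 14864). No blue gene is at 0, the medians are 4 and 3, and the blue counts end at 9.

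Among members, Rps14 had the most distal regions, 11, and the longest annotated gene, 31449 bp, since its upstream transcripts widen the window. It was followed by Rpl38 with 10, and by Rpl15, Rpl32 and Rps20 with 9 each. Rpl39l, Rplp2, Rps18, Rps2 and Rps27a had 1 each. Rplp2 lay among 6 other protein-coding genes, which left 7690 bp of its window more than 1 kb from any TSS, and 10 of its 11 regions were promoter-proximal. Rpl39l instead had 40447 bp of such sequence with 1 distal region in it, or 0.247 per 10 kb.

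One stretch past the gene stood out in the profile and was measured after it was seen. Between 5 and 7.5 kb downstream of the TSS, 48 of 73 core genes (65.8%, 54.3 to 75.6) had a region, against 40.0% (37.0 to 43.0) of other genes of like length with a start region, 37.2% (27.3 to 48.3) of mitochondrial ribosome genes and 43.6% (29.3 to 59.0) of proteasome genes. For distal regions alone the core value was 41.1% (30.5 to 52.6), against 22.9% (20.5 to 25.6), 26.9% (18.3 to 37.7) and 38.5% (24.9 to 54.1). In the mirrored stretch upstream, 42.5% (31.8 to 53.9) of core genes and 37.4% (34.5 to 40.4) of genes of like length had a region. Since most members end before 5 kb, this stretch mostly lies beyond the gene.

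The 359 distal regions near members were 399 bp wide in the median (356 to 445), against 344 bp in the other 137538 distal autosomal regions. They were centered in an exon in 14.2%, in an intron in 35.9% and between genes in 49.9%, compared with 6.53%, 46.9% and 46.6% elsewhere. OCT4 and SOX2, the factors removed in the OFF cells, recognize an octamer and a short SOX element and bind jointly where these adjoin. In the central 200 bp, on both strands, the octamer ATGCAAAT was found in 5 of the 359 regions (1.39%, 0.596 to 3.22) and in 2.23% of the others. The SOX letters ACAAAG were found in 66 (18.4%, 14.7 to 22.7) and in 21.0%. TGTTATGCA, the core of the joint element, was found in 0 of 359 (0%, 0 to 1.06) and in 0.198% of the others. A match is letters in the reference and not evidence of binding.

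Both sites below are shown because the octamer is the element that OCT4 recognizes. The octamers are in capitals, on the plus strand of GRCm38. The first is 11.4 kb downstream of the Rpl41 TSS, in a region of 391 bp that holds the octamer at 2 places, and the second is 6.64 kb upstream of the Rps3a1 TSS, in a region of 467 bp.
Rpl41 (chr10:128537777-128537928): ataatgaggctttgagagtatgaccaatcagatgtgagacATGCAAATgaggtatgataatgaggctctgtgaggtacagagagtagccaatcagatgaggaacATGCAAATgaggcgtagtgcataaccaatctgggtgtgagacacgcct
Rps3a1 (chr3:86149244-86149331): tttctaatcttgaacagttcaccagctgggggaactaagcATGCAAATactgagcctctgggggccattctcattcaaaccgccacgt
The other 3 were near Rpl22l1, Rpl14 and Rpl30.

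The start windows, from 250 bases before to 50 bases after the TSS, were searched on both strands for exact letters. An ETS site (CCGGAAG), bound by factors such as GABPA, was found in 26 of 81 members (32.1%, 22.9 to 42.9), against 11.4% of other genes and 15.1% of those with a start region. The share was as high in mitochondrial ribosome genes (37.2%) and in proteasome genes (33.3%). An SP site (GGGCGG), typical of CpG-rich promoters, was found in 40 members (49.4%, 38.8 to 60.0), against 46.2% and 61.6% of the same sets of other genes. A YY1 site (AAGATGGCG) was found in 5 members (6.17%, 2.67 to 13.6) against 1.86% and 2.52%, and in 10.3% of both mitochondrial ribosome and proteasome genes. An E-box of the MYC type (CACGTG) was found in 9 (11.1%, 5.96 to 19.8) against 7.76% and 9.57%. An NRF1 site (GCGCATGC) was found in 4 (4.94%, 1.94 to 12.0) against 3.47% and 4.69%. The TATA box letters TATAAA were searched between 40 and 15 bases before the TSS on the gene's strand. They were found in 0 of 81 members (0%, 0 to 4.53) and in 1.32% of other genes with a start region. The count was also 0 of 78 in mitochondrial ribosome genes and 0 of 39 in proteasome genes. A window without these letters can still hold weaker sites.

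**Figure D5:**
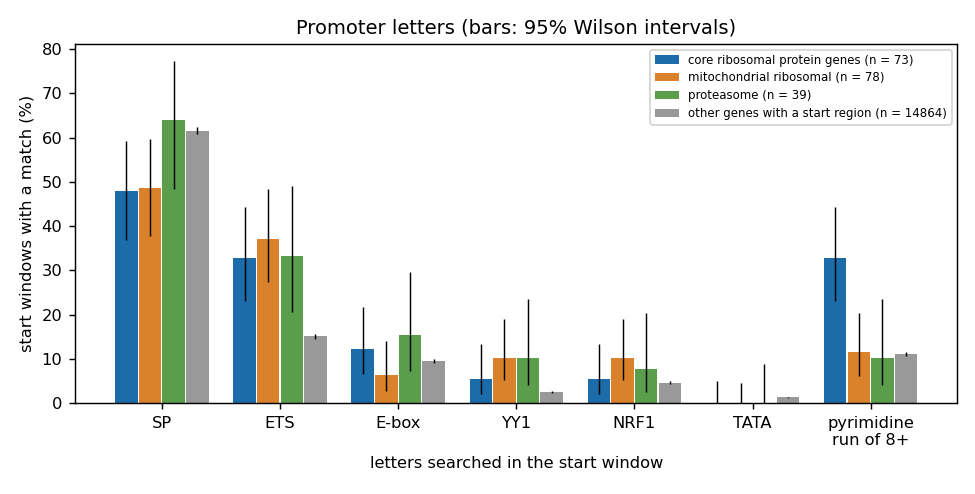
Percentage of start windows with each set of letters and with a run of at least 8 pyrimidines within 15 bases of the TSS (y axis) for core ribosomal protein genes (blue), mitochondrial ribosomal protein genes (orange), proteasome genes (green) and other genes with a start region (grey), with 95% Wilson intervals as lines. ETS letters are above the grey bar in all 3 families, and the long pyrimidine run is at 32.9% in the blue bar and between 10.3% and 11.5% in the others.

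The promoters below run from 150 bases before the TSS through the 15 bases that start with it, on the gene's strand in GRCm38, with SP, ETS and E-box letters in capitals. They contrast the widest start region (Rpl7a, SP letters only), a stalk gene with 3 kinds of site (Rplp2), the narrowest start region (Rpl39l, ETS letters only) and a promoter without a region (Rpl3l, none of the letters).
Rpl7a (chr2:26910614-26910778): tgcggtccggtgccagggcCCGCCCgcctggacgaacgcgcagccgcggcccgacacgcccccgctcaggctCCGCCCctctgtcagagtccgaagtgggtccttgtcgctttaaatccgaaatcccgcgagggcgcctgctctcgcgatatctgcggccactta
Rplp2 (chr7:141447220-141447384): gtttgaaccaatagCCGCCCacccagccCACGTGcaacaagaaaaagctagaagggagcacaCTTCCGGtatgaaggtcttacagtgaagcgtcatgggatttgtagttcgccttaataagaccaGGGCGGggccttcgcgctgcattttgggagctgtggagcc
Rpl39l (chr16:10170078-10170242): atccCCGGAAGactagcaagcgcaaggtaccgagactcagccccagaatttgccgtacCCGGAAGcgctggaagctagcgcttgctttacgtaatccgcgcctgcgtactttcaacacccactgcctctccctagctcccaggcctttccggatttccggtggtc
Rpl3l (chr17:24727670-24727834): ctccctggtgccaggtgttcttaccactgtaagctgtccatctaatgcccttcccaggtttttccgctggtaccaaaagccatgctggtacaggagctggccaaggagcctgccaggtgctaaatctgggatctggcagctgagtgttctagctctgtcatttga
Core genes with ETS letters had a median start region of 1151 bp (671 to 2779, n = 24, range in parentheses). Those without had 1241 bp (731 to 2878, n = 49). Core genes with a long pyrimidine run had 1148 bp (901 to 1770, n = 24) and those without 1250 bp (671 to 2878, n = 49). The ranges overlapped in both comparisons, and a link between letters and width was not tested.

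A list of 18 other genes of ribosome production and translation was complete in the same way: 18 of 18 had a region over the TSS, with a median width of 1234 bp. Fau, which encodes a ribosomal protein fused to a ubiquitin-like protein and so falls outside the symbol rule, had a narrow start region of 745 bp. Rack1, which encodes a scaffold protein of the small subunit, had 1210 bp. Among elongation factor genes the width was 1760 bp at Eef1a1, 1235 bp at Eef1b2, 1177 bp at Eef1g and 1024 bp at Eef2. It was 2044 bp at Pabpc1 (poly(A) binding protein) and 1371 bp at Tpt1, both of which have TOP mRNAs. Nucleolar protein genes lay between 1233 bp (Fbl) and 1617 bp (Ncl), with 1566 bp at Npm1, 1310 bp at Nop56 and 1319 bp at Nop58. Genes of RNA polymerase I and its factors spread most, from 707 bp at Polr1b through 1018 bp at Polr1a and 1005 bp at Rrn3 to 3007 bp at Ubtf, of which 2443 bp was downstream of the TSS.

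Pseudogenes of the members were overlapped about as often as those of other genes. A region overlapped 29 of 259 autosomal pseudogenes named after a cytosolic ribosomal protein gene (11.2%, 7.91 to 15.6), and 1064 of 8934 other processed pseudogenes (11.9%, 11.3 to 12.6). With at least 1 base of overlap as the only condition, and pseudogenes of 463 bp and 564 bp in the median, the shares differed by less than their intervals.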

How the data were processed

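ATAC-seq libraries came from 12 samples, 2 per group, grouped by line, treatment and hours per the labels. The authors aligned reads to mm10 (GRCm38) with STAR 2.6.1c, removed duplicates with Picard, called peaks with MACS2 2.1.1.20160309 and merged them with bedtools. The deposited list holds positions in bp (a start, counted from 0, and an end) and no score, count or sample column, so depth is unknown and nothing was tested. The region list has been pooled over OCT4 and SOX2 ON and OFF cells, which limits every value to presence and extent. Regions wider than 5 kb, which the authors removed before their tests, are still in it. The part of reads shared with pseudogene copies, and of merging over libraries, in the widths was not tested.

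Here starts were converted to count from 1 and regions joined to GENCODE vM21 genes on the same build, with Python 3.11.15, NumPy 2.4.6, pandas 2.3.3, SciPy 1.17.1 and matplotlib 3.10.9. One principal TSS per gene was used for widths, and all annotated TSSs for promoter shares and for distal regions (center over 1 kb from each). The measuring steps were checked on simulated data. Sequences were read from the GRCm38 genome.

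Genes were named by rule: members without a region within 1 kb of a TSS, the 5 widest and 5 narrowest start regions, the 5 with most and 5 with fewest distal regions, the 5 shortest distances to another protein-coding TSS, pairs within 20 kb, stalk genes, paralogs, and a list of 18 translation genes; some of the genes this rule takes are not reported here. Members, lists and measures were chosen with earlier results of these data known. Genes of like length and the stretch at 5 to 7.5 kb were added after values were seen. Alternatives were other TSS sets, windows, width filters, joining and comparison genes.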

Additional observations from a re-analysis of the deposited data

How the results depend on the processing

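Each difference is members minus other genes. Across 7 results, 27 of 42 alternatives stayed within the interval of the reported value and did not turn its sign. Of the 42, 5 were chosen after seeing the data. The promoter share differed by 21.5 percentage points. The difference was 25.8 with 1 TSS per gene, 27.4 with the TSS overlapped, 23.9 without paralogs and 29.2 against other genes no longer than the longest member. The width difference of 132 bp became 193 bp against those shorter genes. It was 97 bp with only regions that overlap the TSS and 50 bp against other genes of like CpG ratio. The median number of regions, equal in both sets, was higher in members by 3 within 20 kb of the TSS, by 3 with 50 kb of flank and by 2 against shorter genes. The distal difference of -1 turned to 1 within 20 kb of the TSS, to 1 against shorter genes, to 1 in that TSS window among genes with a start region, and to 0.478 and 0.348 per 10 kb against all other genes and those with a start region. The window and per 10 kb settings change the length of sequence searched by construction. The shared start difference of 19 points fell to 5.06 for protein-coding neighbors. The pseudogene difference of -0.713 points turned to 0.805 with at least 50% of the pseudogene covered.

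RefSeq starts matched 61 of 81 members, too few, so that check was void. No paired analysis was possible because the merged list has no column per sample. Leaving out a replicate was not possible for the same reason. Depth limits could not be set, so a gene without a region is one where none was called.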
